A study of Mus musculus with 6 samples.

Results

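The genes described here were the autosomal protein-coding genes whose symbol is Zfp followed by exactly 3 digits (*Zfp101*, *Zfp462* and so on), leaving out *Zfp352*. Members were found by symbol in the GENCODE M1 annotation of the mouse genome build mm9. There were 290 such gene records with 286 different symbols among 21418 autosomal protein-coding genes, and they lay on all 19 autosomes, 72 of them on chromosome 7. The study mapped binding of the zinc-finger protein ZFP57 and its partner KAP1 by chromatin immunoprecipitation and sequencing (ChIP-seq) in hybrid mouse embryonic stem cells. JB1 is an ESC line with a JF1 mother and a C57BL/6 (B6) father, and BJ1 is the reciprocal line with a B6 mother and a JF1 father, both described as male in the study's methods and each a single line. Neither line was given a treatment. Each line gave 1 ZFP57 library, 1 KAP1 library and 1 input library, of which the 4 ChIP libraries are described here as the peak lists the authors made from them. With 1 library per line and antibody there was no replicate, so that no value below has a test over samples and JB1 and BJ1 differ by line, library and list length at once.

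Most genes of this name encode proteins with tandem C2H2 zinc fingers, small zinc-binding modules that read DNA, usually encoded side by side in a single long last coding exon. Many also carry a KRAB domain near the N terminus. KRAB recruits KAP1 (also TRIM28), a co-repressor that brings histone H3 lysine 9 methylation, and ZFP57 is itself a KRAB zinc-finger protein that protects the DNA methylation of imprinted regions. Zinc-finger genes, in turn, are known as KAP1-bound loci in embryonic stem cells.

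The peak lists gave positions only, on a grid of 150 bp, with no height, score or read count, so the depth behind a peak is unknown. The lists held 38713 KAP1 peaks in JB1, 72535 KAP1 peaks in BJ1, 10667 ZFP57 peaks in JB1 and 1318 ZFP57 peaks in BJ1. KAP1 peaks were thus more numerous in BJ1 and ZFP57 peaks in JB1. As a check of the antibody labels, 5 of 11 known imprinted genes in the annotation had a ZFP57 peak within 10 kb of the 5' end in each line, against 4.73% of all genes in JB1 and 0.994% in BJ1. KAP1 peaks lay there at 6 of the 11 in JB1 (all genes 18.2%) and at 8 in BJ1 (all genes 43.6%). The check thus does not by itself tell the antibodies apart.

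The sequences that the results turn on are shown first. TGCCGC, the main motif that the study names for ZFP57, was found in the ZFP57 peaks over the coding sequence of *Zfp787*, *Zfp553*, *Zfp629* and *Zfp777* and in the intronic ZFP57 peak of *Zfp462*. The stretches below are 120 bases of the peak in BJ1 with the most TGCCGC, read 5' to 3' on the strand of the gene in mm9 (NCBIM37), with TGCCGC and its reverse complement GCGGCA in capitals. They lie at chr7:6084438-6084557 (minus strand) for *Zfp787*, chr7:134379466-134379585 (plus strand) for *Zfp553*, chr7:134755150-134755269 (minus strand) for *Zfp629*, chr6:47974816-47974935 (minus strand) for *Zfp777* and chr4:55012629-55012748 (plus strand) for *Zfp462*.
Zfp787: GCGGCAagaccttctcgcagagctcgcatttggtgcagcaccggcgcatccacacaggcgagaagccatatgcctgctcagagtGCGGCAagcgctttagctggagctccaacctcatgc
Zfp553: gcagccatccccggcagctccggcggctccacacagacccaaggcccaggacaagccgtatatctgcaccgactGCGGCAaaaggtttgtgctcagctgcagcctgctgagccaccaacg
Zfp629: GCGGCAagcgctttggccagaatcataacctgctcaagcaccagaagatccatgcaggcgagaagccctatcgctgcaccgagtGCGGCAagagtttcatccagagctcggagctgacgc
Zfp777: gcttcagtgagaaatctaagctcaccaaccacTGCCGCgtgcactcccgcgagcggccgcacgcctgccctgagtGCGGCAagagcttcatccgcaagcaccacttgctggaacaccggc
Zfp462: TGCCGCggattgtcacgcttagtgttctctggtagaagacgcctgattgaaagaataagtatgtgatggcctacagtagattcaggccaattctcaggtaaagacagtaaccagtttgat

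The other pair comes from the last coding exons of *Zfp534* and *Zfp600*, which lay under the widest KAP1 peaks at a 3' end. Capitals mark ACNGGNGANAANCC, the codon pattern of the linker that joins neighbouring C2H2 fingers, with N for any base. The stretches of 180 bases lie at chr4:147048598-147048777 (minus strand) for *Zfp534* and chr4:146163404-146163583 (plus strand) for *Zfp600*, and 82.8% of the 180 aligned bases were identical.
Zfp534: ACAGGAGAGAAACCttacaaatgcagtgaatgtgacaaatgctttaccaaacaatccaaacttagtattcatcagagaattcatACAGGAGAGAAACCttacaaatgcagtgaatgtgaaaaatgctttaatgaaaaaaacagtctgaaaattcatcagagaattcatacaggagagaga
Zfp600: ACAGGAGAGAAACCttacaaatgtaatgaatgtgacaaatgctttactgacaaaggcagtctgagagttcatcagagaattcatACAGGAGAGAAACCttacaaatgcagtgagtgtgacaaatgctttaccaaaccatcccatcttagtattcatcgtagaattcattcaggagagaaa

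KAP1 peaks lay more often at the 3' end of the numbered Zfp genes than at that of other genes. The 3' end was taken as 2 kb before to 2 kb after the annotated end of the gene, the start as the same span around the 5' end and the body as what lies between, and a peak counted in each part that it overlapped by at least 1 bp. In JB1, 33 of 290 genes had a KAP1 peak at the 3' end, or 11.4% (95% Clopper-Pearson interval 7.96 to 15.6), against 3.69% of all autosomal protein-coding genes and 3.65% of the other genes weighted to the same gene lengths. In BJ1 there were 64 genes, or 22.1% (17.4 to 27.3), against 10.6% of all genes and 11.1% of the length-weighted other genes. The members' share was 3.12 times the weighted share in JB1 and 1.99 times in BJ1. These intervals cover counting error only, and neighbouring genes of a family are not independent of each other.

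At the start of the gene the same comparison gave smaller ratios. KAP1 peaks stood at the start of 22 numbered Zfp genes in JB1, 7.59% (4.82 to 11.3) against 4.56% of all genes and 4.47% of the weighted other genes. In BJ1 they stood at the start of 62 genes, 21.4% (16.8 to 26.6) against 15.6% and 15.7%. The body of the gene held a KAP1 peak in 52 genes of JB1, 17.9% (13.7 to 22.8), where all genes gave 16.1% and the weighted other genes 12.1%. In BJ1 the body held one in 106 genes, 36.6% (31.0 to 42.4), where all genes gave 31.2% and the weighted other genes 26.7%. The ratio to the weighted other genes was therefore 1.70 at the start and 1.48 in the body in JB1, and 1.36 and 1.37 in BJ1, each below the ratio at the 3' end of the same line. Over the whole gene and 2 kb on either side, 90 genes had a KAP1 peak in JB1 (31.0%, all genes 21.9%) and 161 in BJ1 (55.5%, all genes 45.5%).

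**Figure D1:**
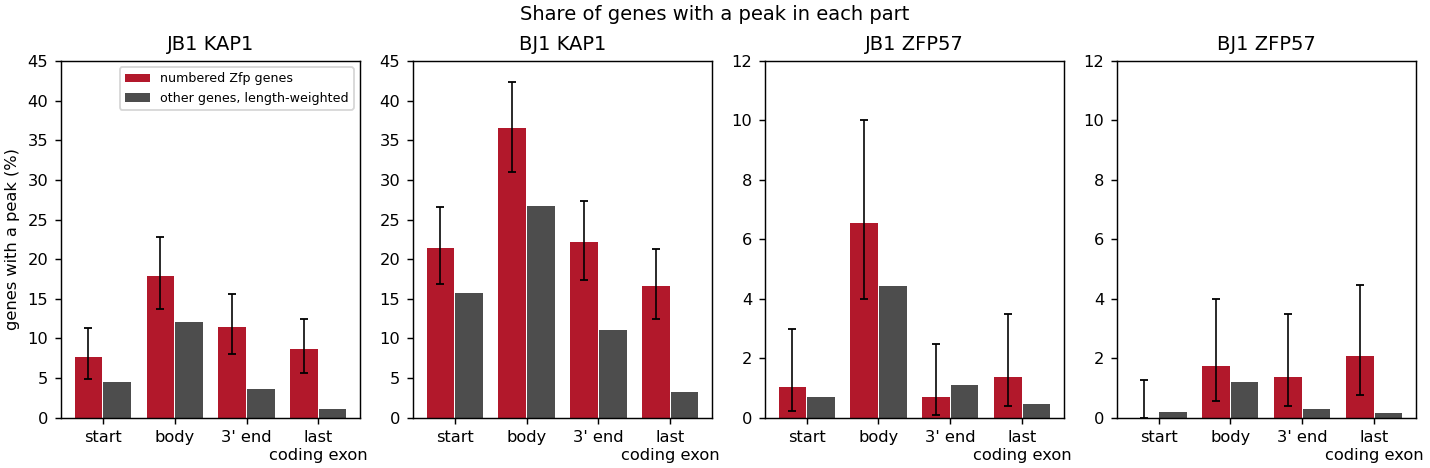
Share of genes with a peak (%) at the start, in the body, at the 3' end and over the last coding exon, for each of the 4 peak lists; red bars are the 290 numbered Zfp genes with 95% Clopper-Pearson intervals and grey bars the other autosomal protein-coding genes weighted to the same gene lengths. KAP1 bars run to 45% and ZFP57 bars to 12% on the axis; the red KAP1 bars exceed the grey ones in every part, and ZFP57 intervals at the start, in the body and, in JB1, at the 3' end and last coding exon include the grey values.

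Along the gene, the excess of KAP1 grew towards the 3' end. In the first of 20 equal bins of the gene, 2.76% of the numbered Zfp genes had a KAP1 peak in JB1 against 2.38% of the weighted other genes, and in the last bin 5.17% against 1.52%. In BJ1 the first bin gave 13.1% against 9.92% and the last 12.8% against 4.38%. The first 200 bp after the gene gave 3.10% against 0.641% in JB1 and 5.86% against 2.26% in BJ1. The peak at the 5' end seen in BJ1 was thus common to both sets of genes, whereas the rise in the second part of the gene was seen in the numbered Zfp genes.

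**Figure D2:**
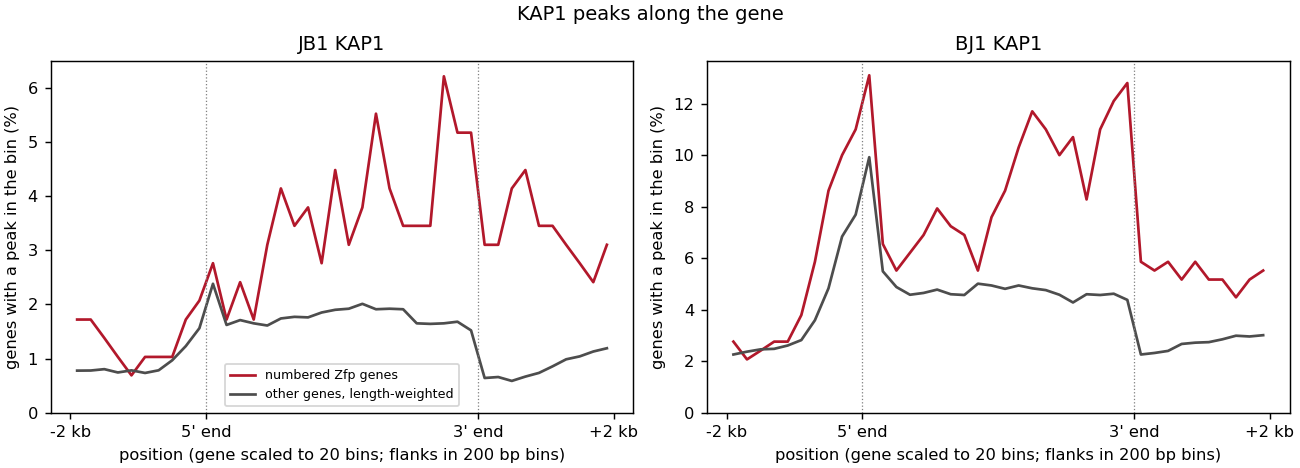
Share of genes with a KAP1 peak (%) in each bin along the gene, from 2 kb before the 5' end to 2 kb after the 3' end, in JB1 (left) and BJ1 (right); the gene is scaled to 20 bins and the flanks are in bins of 200 bp, with a different vertical scale in each panel. The red line of the numbered Zfp genes lies close to the grey line of length-weighted other genes at the 5' end in JB1 (2.76% and 2.38%) and apart from it in the last bin of the gene (5.17% and 1.52%).

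Nearly all numbered Zfp genes with a 3' end KAP1 peak in JB1 had one in BJ1 too. Of the 33 genes with a 3' end KAP1 peak in JB1, 32 (97.0%) had one in BJ1, which is 50.0% of the 64 genes of BJ1. Among other genes the same shares were 88.1% and 30.2%, so that in either set most genes with a 3' end peak in JB1 had one in the longer BJ1 list. A total of 225 numbered Zfp genes had none in either line. In all 32 the peaks of the 2 lines overlapped each other, although only 1 had the same start and end in both. All genes gave 3.27% with a 3' end KAP1 peak in both lines, against 32 of the 290 numbered Zfp genes. At the start, 21 genes had a peak in both lines (7.24%, all genes 4.10%). Another 32 genes had a 3' end KAP1 peak in BJ1 only and 1 gene in JB1 only, and the part of the shorter JB1 list in this difference was not tested.

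Of the 32 genes with KAP1 at the 3' end in both lines, 20 had the peaks over the last coding exon in both lines. The widest peak per gene ranged from 450 to 7500 bp in JB1 (median 750 bp) and from 450 to 14700 bp in BJ1 (median 1350 bp). The remaining genes had peaks in the last part of the transcript or downstream of it, such as *Zfp820* and *Zfp160*, whose last coding exons ended before the peak began. *Zfp692* and *Zfp672* are neighbours that share the same peaks, so that they count as 2 genes but 1 site.

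**Figure D3:**
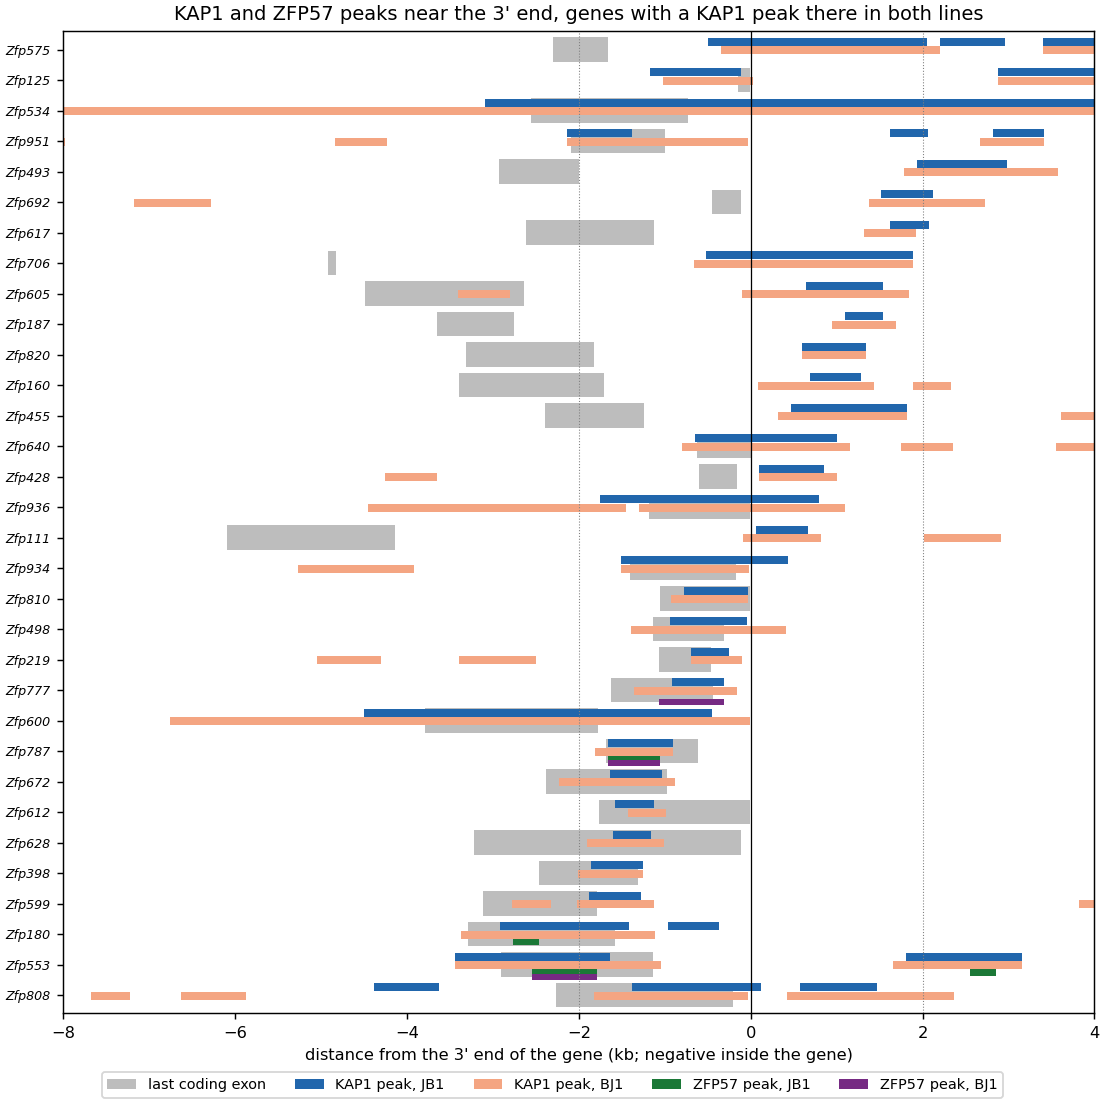
KAP1 peaks of JB1 (blue) and BJ1 (orange), ZFP57 peaks of JB1 (green) and BJ1 (purple) and the last coding exon (grey) of the 32 genes with a KAP1 peak at the 3' end in both lines, as distance from the 3' end in kb, negative inside the gene; dotted lines mark 2 kb on either side. Blue and orange bars overlap in all 32 genes, and in 20 of them both lie over the grey exon.

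Ranked by the narrower of the 2 lines, the widest of these peaks belonged to 2 KRAB zinc-finger genes of chromosome 4. At *Zfp534*, with 15 C2H2 fingers, the KAP1 peak was 7500 bp wide in JB1 (chr4:147043201-147050700) and 14700 bp in BJ1 (chr4:147043351-147058050), and it covered the last coding exon of 1826 bp in both lines. At *Zfp600*, with 17 fingers, it was 4050 bp in JB1 (chr4:146161651-146165700) and 6750 bp in BJ1 (chr4:146159401-146166150), over a last coding exon of 2009 bp. The linker codons shown above occurred 13 times in the *Zfp600* peak in each line. *Zfp936* followed with 2550 bp in JB1 and 3000 bp in BJ1, then *Zfp706* with 2400 and 2550 bp, *Zfp553* with 1800 and 2400 bp, *Zfp575* with 2550 and 1650 bp, and *Zfp640* with 1650 and 1950 bp. The next 3 genes tied at 1500 bp in the narrower line, namely *Zfp180* (1500 and 2250 bp), *Zfp808* (1500 and 1950 bp) and *Zfp934* (1950 and 1500 bp). *Zfp706*, which has a single finger and a last coding exon of 93 bp, had these peaks over non-coding exon sequence and the region downstream, as did *Zfp575* in JB1. In BJ1 the 1650 bp peak of *Zfp575* lay wholly downstream of the gene. The other 8 of these 10 genes had a KAP1 peak over the last coding exon in both lines, which was not always the widest one. In BJ1 the exon peak was 2400 bp wide at *Zfp936* and 1800 bp at *Zfp808*. The wider BJ1 peaks of these genes given above lay off the exon.

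Some genes held KAP1 in many places. *Zfp462*, a large gene with 33 C2H2 fingers and no KRAB core, had 8 KAP1 peaks in JB1 and 20 in BJ1 over its 138516 bp and 2 kb on either side. *Zfp600* had 7 and 9 peaks, *Zfp808* 6 and 12, *Zfp277* 8 and 6, and *Zfp398* 4 and 5. *Zfp277*, with 130745 bp and a single finger, had all of these peaks in introns. In contrast, *Zfp808* with 22 fingers had 4 peaks before the last coding exon in JB1, 1 over it (1500 bp) and 1 downstream.

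The last coding exon was long in these genes, with a median of 1210 bp against 177 bp in the other genes, and held a median of 83.3% of the coding sequence against 17.3%. A KAP1 peak lay over it in 25 genes of JB1, 8.62% (5.66 to 12.5), against 1.26% of all genes and 1.07% of the length-weighted other genes. In BJ1 it was 48 genes, 16.6% (12.5 to 21.3), against 3.47% and 3.28%. In both lines together it was 24 genes, or 8.28%, against 1.03% of all genes. Among genes with a 3' end KAP1 peak, that peak lay over the last coding exon in 20 of 33 numbered Zfp genes in JB1 (60.6%, other genes 23.6%) and in 36 of 64 in BJ1 (56.2%, other genes 22.4%).

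Other genes with a last coding exon of 1 kb or more had KAP1 over it in 5.45% in JB1 and 12.9% in BJ1. The other genes were therefore also weighted to the size of the last coding exon, a comparison chosen after seeing the data. They then gave 4.09% in JB1 and 9.54% in BJ1, and the ratio of the numbered Zfp genes to them fell to 2.11 and 1.74. The excess over length-weighted genes thus became smaller once exon size was matched, and the weighted values still lay below the intervals given above. By size class, the numbered Zfp genes with an exon from 1000 to under 1500 bp had KAP1 over it in 10 of 82 (12.2%, other genes 4.57%) in JB1 and in 19 of 82 (23.2%, other genes 11.3%) in BJ1. From 1500 to under 2000 bp the order was not kept in JB1, with 4 of 67 (5.97%) against 7.87%.

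**Figure D4:**
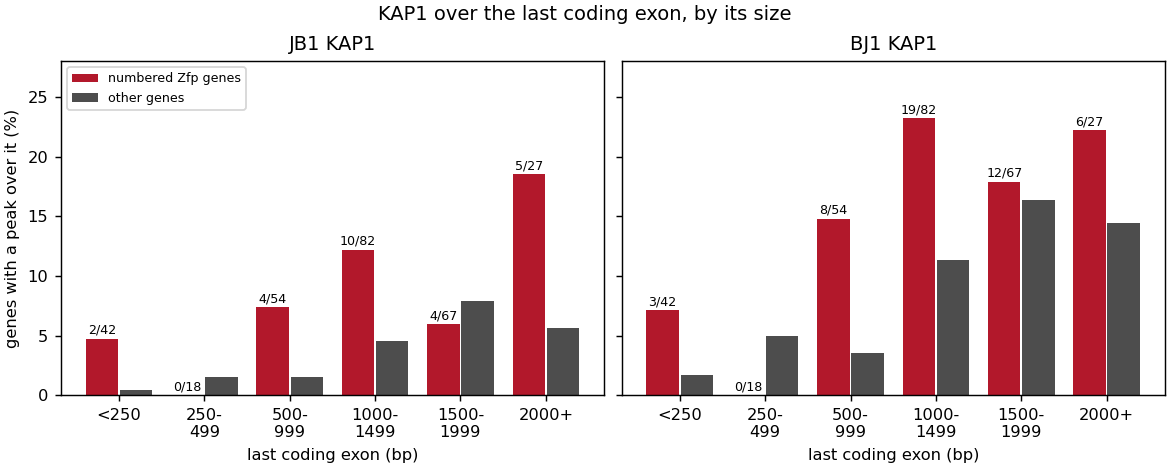
Share of genes with a KAP1 peak over the last coding exon (%), by the size of that exon in bp, for the numbered Zfp genes (red, with the number of genes with a peak over the number in the class) and all other autosomal protein-coding genes (grey), in JB1 (left) and BJ1 (right). The red bar is higher from 1000 to under 1500 bp in both lines (12.2% and 4.57% in JB1), and lower from 250 to under 500 bp, where 0 of 18 had a peak, and from 1500 to under 2000 bp in JB1.

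The share with KAP1 at the 3' end was lowest in genes without a C2H2 finger and highest in those with most fingers, with overlapping intervals. The fingers were counted in the protein of the longest coding transcript as C, 2 residues, C, 12 residues, H, 3 or 4 residues, H. The median was 9 fingers, and 26 genes had none by this pattern. Coding sequences were translated from their first base, so an annotated one with an incomplete start may be read out of frame. *Zfp616* (1457 bp) and *Zfp707* (1175 bp), whose coding lengths are no whole number of codons, are among the 26. The class without a finger may thus hold genes that do encode fingers. A looser spacing, tried after seeing the data, left 16 genes without a finger, of which 0 had a 3' end KAP1 peak in JB1 and 2 in BJ1. In JB1, 0 of 26 genes with no finger had a 3' end KAP1 peak (upper bound 13.2%), then 7.69% of those with 1 to 5 fingers, 11.7% with 6 to 10 and 15.3% (9.30 to 23.0) of the 118 with 11 or more. In BJ1 these values were 11.5%, 21.2%, 21.3% and 25.4% (17.9 to 34.3). In both lines the intervals of all classes overlapped, those of the lowest and highest class included, and no trend was tested.

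Among other genes the share also differed by finger class. With 1 to 5 fingers the other genes gave 10.0% in JB1 and 18.0% in BJ1, and with 6 to 10 fingers 6.67% (2.49 to 13.9) and 17.8% (10.5 to 27.3), values whose intervals overlapped those of the numbered Zfp genes. Of the 118 other genes with 11 or more fingers, 21.2% (14.2 to 29.7) had a 3' end KAP1 peak in JB1 and 33.1% (24.7 to 42.3) in BJ1, while other genes without a finger gave 3.41% and 10.2%. Likewise, Zfp genes with 1 or 2 digits in the symbol, 46 in all, gave 17.4% in JB1 and 34.8% in BJ1. Zkscan and Zscan genes, which pair fingers with a SCAN domain, gave 4 and 5 of 25 genes. Zbtb genes, which pair them with a BTB domain, gave 5.41% and 18.9% of 37. Klf genes, transcription factors with few fingers, gave 0 of 16 in JB1 and 3 of 16 in BJ1. The olfactory receptor genes (Olfr), a large tandem family without fingers, gave 1.99% and 3.89% of 1106. Long last coding exons without a finger, 1 kb or more in 1279 other genes, gave 5.32% in JB1 and 12.4% in BJ1.

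**Figure D5:**
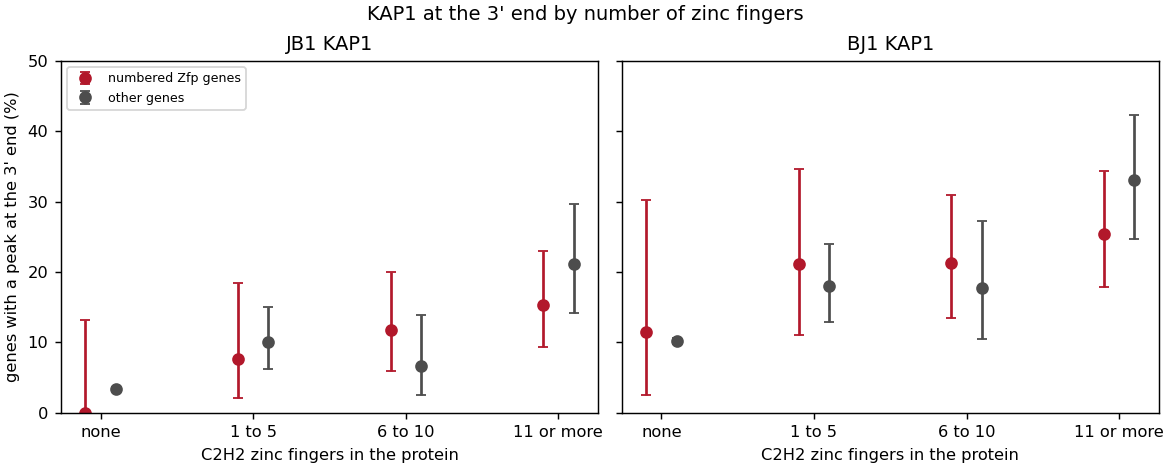
Share of genes with a KAP1 peak at the 3' end (%) by the number of C2H2 fingers in the protein, for the numbered Zfp genes (red) and other autosomal protein-coding genes (grey), in JB1 (left) and BJ1 (right); points are shares and bars 95% Clopper-Pearson intervals. In JB1 the red points go from 0% with no finger to 15.3% with 11 or more, and the grey point there is at 21.2%.

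The KRAB core, a short stretch of the KRAB domain, was found in 118 numbered Zfp genes. It was searched as a fixed pattern, so genes without a match may still encode a KRAB domain. How many do was not tested, and the classes with and without the core are not classes with and without KRAB. At the 3' end the intervals with and without it overlapped. Genes with it had a 3' end KAP1 peak in 13.6% (7.95 to 21.1) in JB1 and 23.7% (16.4 to 32.4) in BJ1, against 9.88% (5.86 to 15.4) and 20.9% (15.1 to 27.8) of the 172 without it. At the start, JB1 gave 4.24% (1.39 to 9.61) with the core and 9.88% (5.86 to 15.4) without it, an order that was turned in BJ1 with 23.7% and 19.8%. All of these pairs of intervals overlapped. Among other genes with fingers they did not overlap in either line. There the 124 genes with a KRAB core had a 3' end KAP1 peak in 22.6% (15.6 to 31.0) in JB1 and 31.5% (23.4 to 40.4) in BJ1, and the 284 without one in 8.10% (5.20 to 11.9) and 18.3% (14.0 to 23.3), intervals that barely parted in BJ1. These sets also differed in the last coding exon, with medians of 1306 and 674 bp. Among other genes with 11 or more fingers the intervals overlapped in both lines. In JB1 they gave 24.1% (15.1 to 35.0) with the core and 15.4% (5.86 to 30.5) without it. In BJ1 the order was turned, with 31.6% (21.6 to 43.1) and 35.9% (21.2 to 52.8). A total of 53 genes with a KRAB core (44.9%) and 74 without it (43.0%) had no KAP1 peak in either line, among the former *Zfp458* and *Zfp712* with 20 fingers each and *Zfp595*, *Zfp715* and *Zfp945* with 18 each. In all, 127 of the 290 genes (43.8%) had no KAP1 peak in either line, against 53.5% of all genes, and 122 (42.1%) had no peak in any of the 4 lists, against 52.2%.

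Many of the genes lie close to one another, and clusters were formed here by distance alone. With a gap of less than 100 kb between neighbours, 107 genes formed 20 clusters of 3 or more, 21 pairs followed and 141 genes stood alone. The 3' end KAP1 shares were 12.1% (6.63 to 19.9) in clusters of 3 or more and 10.9% (6.80 to 16.4) in the others in JB1, and 25.2% (17.3 to 34.6) and 20.2% (14.7 to 26.8) in BJ1. The largest cluster, 12 genes on chromosome 13 from *Zfp712* to *Zfp459*, had a 3' end KAP1 peak in 1 gene in each line and a peak anywhere in 5 genes in JB1 and 6 in BJ1, the widest at *Zfp455* (750 bp in JB1, 1500 bp in BJ1). There were 2 clusters of 8 genes. The one on chromosome 7 from *Zfp790* to *Zfp146* had a KAP1 peak in 2 genes in JB1 and 7 in BJ1, where the widest peak was one of 1800 bp at *Zfp568*. The one on chromosome 17 from *Zfp871* to *Zfp563* had a KAP1 peak in 1 gene in JB1 and 3 in BJ1. Whether reads that fit several similar genes changed these counts was not tested.

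ZFP57 itself was found at few numbered Zfp genes. In JB1, 22 genes had a ZFP57 peak in the gene or within 2 kb, 7.59% (4.82 to 11.3) against 7.98% of all genes and 5.71% of the length-weighted other genes. In BJ1 it was 8 genes, 2.76% (1.20 to 5.36) against 2.17% and 1.56%. Both intervals included these backgrounds. Other genes of similar length without weighting gave 3.91% in JB1 and 1.10% in BJ1, each below the interval of its line, so that the comparison depends on how other genes are chosen and nothing is read from these counts. By part, ZFP57 peaks lay at the start of 3 genes in JB1 (all genes 0.756%) and 0 in BJ1 (all genes 0.182%), in the body of 19 (all genes 6.65%) and 5 (all genes 1.77%), and at the 3' end of 2 (all genes 1.15%) and 4 (all genes 0.317%). With 4 genes, the BJ1 share at the 3' end was 1.38% (0.377 to 3.49).

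The 2 lines differed in where these ZFP57 peaks lay. In JB1, 18 of 25 peaks were in introns and 5 of 25 overlapped coding sequence, whereas in BJ1 it was 7 of 8 (87.5%). Over all autosomal ZFP57 peaks, 2.73% overlapped coding sequence in JB1 and 7.83% in BJ1. That set also holds peaks far from any gene, so it is not a like comparison for peaks in or near a gene. The last coding exon had a ZFP57 peak in 4 genes in JB1 (all genes 0.518%) and in 6 in BJ1 (all genes 0.191%). Against other genes weighted to the size of that exon, this was 0.924 times the share in JB1 and 3.03 times in BJ1. These are small counts of single libraries, and the difference between the lines was not tested.

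Only 4 genes had a ZFP57 peak in both lines (1.38%, all genes 1.36%), and in all 4 a KAP1 peak of the same line overlapped it. *Zfp787*, with 7 fingers, had a peak of 600 bp at chr7:6084151-6084750 in its last coding exon. *Zfp553*, with 12 fingers, had one of 750 bp at chr7:134379151-134379900, and *Zfp629*, with 19 fingers, one of 1650 bp at chr7:134754301-134755950. In each of these 3 genes the peak had the same start and end in JB1 and BJ1 and lay over the last coding exon, where the stretches printed above come from. The peak of *Zfp462* lay in an intron instead, at chr4:55012201-55012950 in JB1 and chr4:55012351-55013100 in BJ1, inside a KAP1 peak of 3150 bp in JB1 that reached 3600 bp in BJ1. None of the 3 genes with a peak in the last coding exon had a KRAB core.

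ZFP57 was seen in BJ1 alone at *Zfp120*, *Zfp777*, *Zfp768* and *Zfp651*, all over coding sequence. *Zfp777* had a peak of 750 bp, *Zfp768* and *Zfp651* one of 450 bp each and *Zfp120* one of 300 bp, and only that of *Zfp120* overlapped no KAP1 peak of BJ1. The other 18 of the 22 genes with ZFP57 in JB1 had it in JB1 alone. Of the 22, 18.2% thus had it in BJ1 too, near the 17.1% of other genes. These JB1 sites were mostly peaks of 300 to 600 bp in introns. Of the JB1 peaks, 9 overlapped no KAP1 peak of JB1, the widest being those of *Zfp933* and *Zfp937* (600 bp each) and *Zfp292* (450 bp). KAP1 of the same line overlapped 16 of 25 ZFP57 peaks in JB1 (64.0%, all autosomal ZFP57 peaks 61.4%) and 7 of 8 in BJ1 (87.5%, all 55.1%). *Zfp445*, named here for its known part in keeping imprints and after its values were seen, had 4 KAP1 peaks in each line and an intronic ZFP57 peak of 300 bp in JB1 that overlapped KAP1.

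TGCCGC was searched on both strands, wholly inside the peak. The study also reported a variant, GGCCGC, that bound ZFP57 in vitro when methylated. That variant was not searched here, so a peak without TGCCGC may still hold it. It occurred in 10 of the 25 ZFP57 peaks at numbered Zfp genes in JB1 (all autosomal ZFP57 peaks 48.5%) and in 6 of 8 in BJ1 (75.0%, all 43.9%), while 2.76% of all autosomal windows of 450 bp held it. In JB1 all 5 peaks over coding sequence had it and 5 of the 20 others (25.0%), where all autosomal ZFP57 peaks over coding sequence gave 44.8%. In BJ1 it was 5 of the 7 over coding sequence (71.4%), those of *Zfp120* and *Zfp651* being without it, which is near the 72.4% of all such peaks. The *Zfp629* peak had 6 matches, *Zfp777* had 3, *Zfp787* and *Zfp768* had 2 each and *Zfp553* and *Zfp462* 1 each. A match is a description of the sequence, not of binding, and wider peaks hold more matches.

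The position of these matches within the coding sequence was recurrent. In the stretches of *Zfp787*, *Zfp553*, *Zfp629* and *Zfp777* above, GCGGCA stands on the strand of the gene, with t before it where that base is shown and with a after it, and most of these matches are in frame as the codons TGC, GGC and AAG or AAA. The match of *Zfp462*, in an intron, and another one of *Zfp777* are TGCCGC on the strand of the gene and not of this kind. This is where C2H2 fingers commonly have the second zinc-binding cysteine followed by glycine and lysine. Over the coding sequences of all 290 numbered Zfp genes there were 263 matches of TGCCGC, of which 76 (28.9%) were of this kind, against 0.955% of the 12990 matches in the other genes. In the 9 genes with a ZFP57 peak over coding sequence in either line it was 15 of 22 matches (68.2%), with 1.28 matches per kb of coding sequence, and in the 281 without such a peak 61 of 241 (25.3%), with 0.447 per kb. In the 24 genes with KAP1 over the last coding exon in both lines it was 26 of 47 (55.3%), with 1.06 per kb, in the 24 with it in BJ1 only 6 of 22 (27.3%), with 0.545 per kb, and in the 241 with KAP1 there in neither line 44 of 190 (23.2%), with 0.404 per kb. *Zfp629* and *Zfp697*, the latter named after its values were seen, gave 5 each of the 26 matches, so that single genes weigh heavily in these counts. The group with ZFP57 over coding sequence and that with KAP1 over the last coding exon in both lines also share genes. These are *Zfp777*, *Zfp787*, *Zfp180*, *Zfp553* and *Zfp629*. Conversely, *Zfp316* (11 matches, 7 of this kind) and *Zfp865* (10 matches, 4 of this kind) had neither peak. At least 1 TGCCGC was present in the coding sequence of 8 of the 9 genes with such a peak (88.9%), of 117 of the 281 without one (41.6%) and of 36.1% of the other genes.

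The linker codons marked in *Zfp534* and *Zfp600* are part of finger-coding sequence, so that their presence follows from where a peak lies. ACNGGNGANAANCC was found on either strand in 14 of 37 KAP1 peaks at the 3' end in JB1 (37.8%) and in 26 of 73 in BJ1 (35.6%). All autosomal KAP1 peaks gave 0.420% and 0.356%, and 0.135% of all autosomal windows of 600 bp held it. Over the last coding exon it was 16 of 25 peaks in JB1 (64.0%) and 33 of 51 in BJ1 (64.7%). All autosomal KAP1 peaks over coding sequence, which are the closer comparison, gave 6.32% in JB1 and 2.99% in BJ1, and those of the numbered Zfp genes over any coding sequence 50.0% and 42.9%. The last coding exons themselves, read on the strand of the gene, held it in 18 of 25 numbered Zfp genes with KAP1 over that exon in JB1 (72.0%), in 36 of 48 in BJ1 (75.0%) and in 143 of 241 with KAP1 there in neither line (59.3%). These codons were thus common with and without KAP1, and no preference of KAP1 for them is read from the peaks. Of all KAP1 peaks at the numbered Zfp genes, 36 of 140 overlapped coding sequence in JB1 (25.7%, all autosomal KAP1 peaks 2.63%) and 84 of 349 in BJ1 (24.1%, all 4.84%). The former all lay in a gene or within 2 kb of it, while the full lists also hold peaks far from genes. These shares are thus not a like comparison, and peaks at other genes alone were not counted.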

How the data were processed

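Per the labels and the study's methods, chromatin of JB1 and BJ1 ESCs was precipitated with antibodies to ZFP57 and KAP1, reads of 50 bases were aligned to mm9, a B6 genome, with Bowtie 0.12.7 allowing 2 mismatches, and MACS peaks were called by the authors with a p-value below 1e-05. CASAVA 1.8.2, SAMtools 0.1.18 and bedtools 2.14.3-1 stand in the submitters' processing notes. The version of MACS and the use of the input libraries are not given in the sources used here. The deposited files hold peak positions alone (unit other), 1 list per ChIP library, with no count, signal or score. The serum content of the medium differs between the labels and the methods.

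Members and lists were chosen with earlier results of these data known. Gene records, coding exons and coding transcripts came from GENCODE M1 and sequence from NCBIM37. No RefSeq protein table was used, and fingers were counted in translated GENCODE transcripts in place of the RefSeq proteins first planned; the KRAB core was searched as W, 2 residues, L or M, 6 residues, L, V, I or M, Y or F, 2 residues, V or A, M, in any coding transcript, which was widened from the longest one after seeing the data. The last coding exon as a part of its own, its size classes, the finger classes of other genes, the linker codons and the reading frame of TGCCGC were also chosen after seeing the data. Other genes were weighted to the members in 6 classes of gene length. Shares carry 95% Clopper-Pearson intervals, which cover counting error only. No test across samples was possible. Genes were named by rules on peak width (ties included), peak number, fingers, clusters and presence in both lines. *Zfp445*, *Zfp697*, *Zfp820*, *Zfp160*, *Zfp692*, *Zfp672*, *Zfp777*, *Zfp768*, *Zfp651*, *Zfp316*, *Zfp865*, *Zfp616*, *Zfp707* and the genes at cluster ends were named outside these rules, after their values were seen. The assignment of peaks to parts was tested on simulated data, where 2447 of 2447 planted peaks were placed in their part. Python 3.11.15, numpy 2.4.6, scipy 1.17.1 and matplotlib 3.10.9 were used. The alternatives tried were another overlap, other window sizes, wider peaks only, another gene model, isolated genes only, 1 gene per cluster and unweighted other genes.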

Additional observations from a re-analysis of the deposited data

How the results depend on the processing

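Each of 8 shares (KAP1 at the start, in the body and at the 3' end, and ZFP57 in the gene or within 2 kb, in each line) was computed under 7 alternatives. Of the 56 values, 45 stayed inside the 95% interval of the value reported and 11 did not. Windows of 1 kb gave 4.14% at the start in JB1, and 7.59% in JB1 and 15.5% in BJ1 at the 3' end. Windows of 5 kb gave 13.8% at the start in JB1 and 30.7% in BJ1, 11.7% and 26.2% in the body, and 17.6% and 33.4% at the 3' end. The widest peaks of each list gave 26.9% for the body in BJ1 and 4.48% for ZFP57 in JB1. Widths come in steps of 150 bp, so this kept between 57.4% and 69.4% of a list. These shifts follow from wider or narrower windows and shorter lists, and the other genes moved with them. The ratio of the numbered Zfp genes to length-weighted other genes at the 3' end ran from 2.17 to 4.04 in JB1 and from 1.51 to 2.35 in BJ1, at the start from 1.34 to 2.30 and from 1.21 to 1.47, and in the body from 1.20 to 1.60 and from 1.28 to 1.40. For ZFP57 it ran from 1.14 to 1.61 in JB1 and from 1.69 to 2.51 in BJ1. For 214 genes with no other protein-coding gene within 2 kb and for the first gene of each of 182 clusters, pairs or single genes, the 3' end ratios were 2.76 and 2.89 in JB1 and 2.01 and 1.86 in BJ1. Unweighted other genes of similar length gave values inside the interval of the weighted share in 4 of 8 cases, and lower values for the body (9.02% in JB1, 23.6% in BJ1) and for ZFP57 (3.91% and 1.10%), the ZFP57 values each below the interval of the numbered Zfp genes in that line. No paired analysis was possible because each line gave 1 library per antibody. Peak lists without read counts do not allow a limit for what depth could have missed.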
